A study of Mus musculus with 15 samples.

Results

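A pair of pooled mouse embryo samples at the 2-cell stage, pair C, was compared gene by gene with another such pair, pair A, making 4 of the 15 samples of a study of filamentous actin in the nucleus. Each sample was a pool of 5 embryos of ICR, an outbred strain, made by in vitro fertilization, injected or left alone 2 hours after insemination and lysed at 32 hours. The labels contradict each other on what the pairs are. By the sample titles, pair A (libraries A1 and A2) received wild-type actin and pair C (libraries C1 and C2) was the non-injected control. By the annotation of the injected mRNA, pair A was not injected and pair C received actinR62D-HA-NLS, an actin mutant tagged with HA and directed to the nucleus. By the annotation the comparison is therefore R62D against no injection. By the titles it is no injection against wild-type actin. A further pair B (titled R62D, annotated actinWT-HA-NLS) enters the fit only for the spread, and by both readings it received actin mRNA. The injected mRNA is transient and enters the whole zygote, and the labels do not say whether pools of the same pair had separate parents or dates, so every p-value measures only the spread between these pools, which may be technical. In a pool, fewer embryos expressing a gene and less RNA per embryo cannot be told apart. The genes compared were the 4769 protein-coding genes that averaged 5 FPKM or more across A1, A2, C1 and C2, of 21963 protein-coding genes and 53023 genes in the table. A gene low in 1 pair could reach that mean through the other pair alone. FPKM is the number of fragments in a gene scaled to the gene's length and to the library's assigned fragments. Differences between levels are given as C minus A on the scale log2(FPKM + 1), with the standard error of the fit.

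In the mouse, the major wave of transcription from the embryo's own genome begins at the 2-cell stage, while RNA stored in the oocyte is being cleared. Actin shuttles between cytoplasm and nucleus, where monomers are subunits of chromatin remodelling complexes and filaments form transiently. The R62D substitution makes an actin that does not polymerise. The actin genes are alike in sequence, so reads cannot be assigned with certainty to 1 actin gene. The labels do not say which actin gene the injected mRNA was made from.

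Before the results, 2 of the 4 libraries have to be named. A2 and C2 stood apart from A1 and C1. Over the 4769 genes, principal component 1 (33.9% of the variance) gave A2 a score of 26.0 and C2 one of 21.9, against -17.9 to -7.9 for the 4 other libraries. A2 and C2 correlated at r = 0.952, above A1 with A2 (0.916) and C1 with C2 (0.923), so each resembled a library of the other pair more than its own partner. The depth was 1000124 assigned reads in A1, 1117950 in A2, 1555431 in C1 and 907210 in C2, and mitochondrially encoded RNA took 10.55%, 13.13%, 7.23% and 10.86% of them in that order. Genes are therefore given with their values in the single libraries, and the main gene lists with the difference between C1 and A1 alone, which leaves out A2 and C2.

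Among the actins, Actb (cytoplasmic beta-actin, chromosome 5, 142903115 to 142906754) measured 52.0 and 69.2 FPKM in the A pools. The C pools had 34.6 and 27.1 FPKM. Pair B measured 116 and 74.1 FPKM. Both C libraries lay below both A libraries, with a difference of -0.95 ± 0.34 (SE). The reads behind these values numbered 139 and 207 in A and 144 and 65.8 in C. Without A2 and C2 the difference was -0.57. For Actg1 (the other cytoplasmic actin, gamma) levels were 7.25 and 10.1 FPKM in A and 8.26 and 3.21 FPKM in C. Here the pairs overlapped, C1 lying between the A libraries, and the difference was -0.61 ± 0.46, or -0.04 without C2. The muscle actins were below the level for testing. In pair A, Acta1 had 7 and 17.3 reads and Actc1 had 1 and 10.7, and both were at 0 in C1 and C2, a count that allows up to 3 reads per library (counting error only). Acta2 had 6 reads in A2 and Actg2 had 4.83 in A2 and 6 in C1, each with 0 in the other libraries of A and C. By the annotation, pair C is the one that received actin mRNA and by the titles it is pair A.

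No gene passed in this comparison (limma on 6 libraries, 0 higher and 0 lower, 0.0% of 4769 in each direction, smallest adjusted p = 1). Without adjustment, 102 genes had p below 0.05 (2.14% of those tested), 71 higher (1.49%) and 31 lower (0.65%), and limma-voom on recovered reads also called 0, with 60 and 22 at that level. With 2 libraries against 2, an exact permutation test of a single gene (two-sided) cannot go below 0.333. The pairs did not overlap in 1254 genes (26.3% of those tested). Interchangeable libraries would separate in a share of 0.333, so non-overlap alone does not mark a difference. The 2.14% likewise lay under the 0.05 of its threshold. Both C libraries lay above both A libraries for 859 genes (18.0%) and below for 395 (8.28%). Most of that imbalance followed the scaling. The median gene was 0.10 higher in C, and once each library was shifted to the same median the counts became 594 above and 559 below, a share of 51.5% above where it had been 68.5%. The unadjusted counts became 46 and 50 on the same scale. They also turned with single libraries, to 157 higher and 21 lower without A1, 55 and 65 without A2, 37 and 83 without C1, and 147 and 42 without C2. With A2 and C2 left out, and C1 and A1 assumed to vary like pair B, 2 genes passed, both higher and both named after their values were seen (limma, adjusted p = 0.0389 for Rab29 and 0.0404 for Id1). Rab29, a small GTPase, measured 1.36 and 5.48 FPKM in A and 28.5 and 7.51 FPKM in C, and Id1, an inhibitor of helix-loop-helix factors, 1.72 FPKM in A1 and 26.0 FPKM in C1, with A2 above the 7.6 FPKM of C2. Differences below are on the deposited scale and are to be read against that shift of 0.10.

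**Figure D1:**
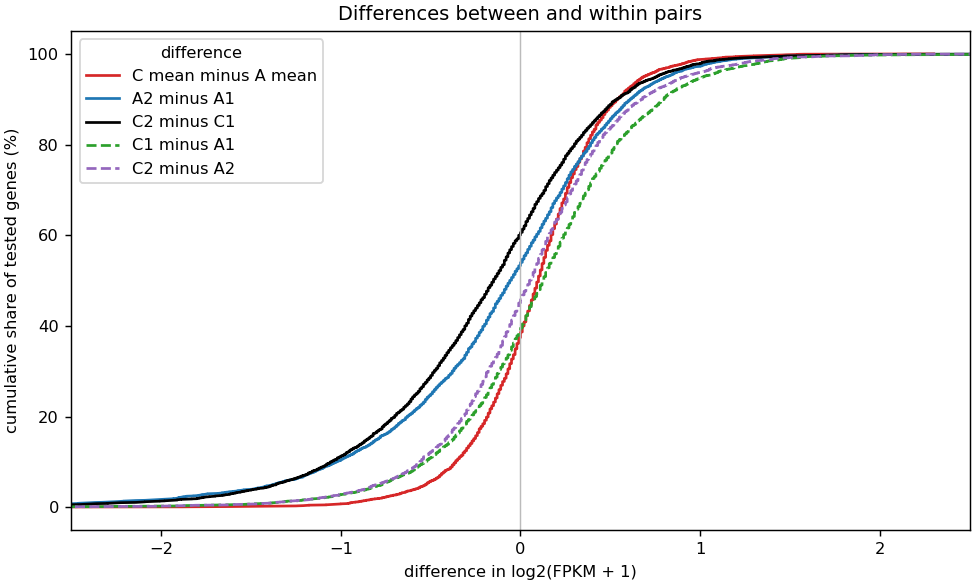
Cumulative share of the 4769 tested genes (vertical axis, %) against the difference in log2(FPKM + 1) (horizontal axis) for the difference of the pair means, the 2 differences within a pair and the 2 differences between libraries of the same title number. The curves of A2 minus A1 and C2 minus C1 have the longest lower tails, with 497 and 531 genes below -1, against 130 and 135 for C1 minus A1 and C2 minus A2.

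Single libraries of the same pair differed more than libraries of different pairs that bore the same number. The median absolute difference was 0.38 between A2 and A1 and 0.40 between C2 and C1, against 0.33 between C1 and A1 and 0.30 between C2 and A2. Crossing the numbers gave 0.36 for C2 against A1 and 0.43 for C1 against A2. The tails show the same order. In A2, 497 genes were lower than in A1 by more than 1 and 130 higher by more than 1, while C1 against A1 had 259 higher and 130 lower.

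The pairs stood clear of each other by more than 1 on the log2 scale in 12 genes, 9 with C above A and 3 with C below. Above were Fam162a, Rwdd2a, Gpha2, Fam136a, Gm12666, Zfp42, Cst9, Rpain and Psmc3, and below were Gm17617, Marc1 and Tfb1m. All 12 had a mean of fewer than 50 reads per library. There were 0 such genes among the 1150 genes with 50 to 100 reads, the 1332 with 100 to 300 and the 576 with 300 or more. These 12 are named because their values stood clear, so they were chosen after the values were seen.

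The leading genes with C above A were taken as the 10 with the lowest unadjusted p among non-overlapping genes, and 0 of them passed. Zfp42, a zinc finger gene known as Rex1 and a marker of pluripotent cells (chromosome 8, 43295063 to 43306980), measured 6.38 and 7.13 FPKM in A and 16.9 and 19.9 FPKM in C, from 12 and 15 reads in A and 49.5 and 34 in C. The pools of each pair lay close together, and the difference was 1.32 ± 0.31 (SE), or 1.28 for C1 against A1. Fam136a, which encodes a mitochondrial protein (chromosome 6, 86365646 to 86370058), measured 7.4 and 6.62 FPKM in A and 23.3 and 19.2 FPKM in C, a difference of 1.47 ± 0.31. For Rwdd2a, an RWD domain gene (chromosome 9, 86571991 to 86574899), the values were 10.9 and 11.0 FPKM in A and 30.3 and 31.2 FPKM in C, so that both A pools and both C pools nearly coincided. Its difference was 1.41 ± 0.33. These 3 genes were chosen for non-overlapping pairs and a low p. Separation in both libraries follows from that choice, which also favours close pools.

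The differences C minus A, B minus A and C minus B share their libraries, so the following values are not separate evidence. Zfp42 measured 19.3 and 22.9 FPKM in B1 and B2, giving 1.51 ± 0.31 for B minus A and -0.19 ± 0.31 for C minus B. Fam136a measured 12.9 and 15.2 FPKM, giving 0.90 ± 0.31 and 0.56 ± 0.31. Rwdd2a measured 26.4 and 16.4 FPKM, giving 0.87 ± 0.33 and 0.54 ± 0.33. In all 3 genes the A pools had the lowest levels of the 6.

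Of these 10 genes, 3 are X-linked, as are 192 of the 4769 tested genes and 27 of the 859 with both C pools above. Nup62cl, named for its likeness to the end of nucleoporin 62 (chromosome X, 140006805 to 140062712), measured 59.5 and 40.8 FPKM in A and 100 and 119 FPKM in C from 133 and 102 reads in A and 348 and 242 in C, a difference of 1.13 ± 0.32. It was the leading gene of high read number. Cited1, a transcriptional co-activator that binds CBP and p300, measured 12.5 and 11.2 FPKM in A and 25.7 and 32.1 FPKM in C (1.21 ± 0.35). Bex2, of the brain-expressed X-linked family, was more scattered, with 3.32 and 5.78 FPKM in A and 27.5 and 11.9 FPKM in C (1.83 ± 0.45), and rests on few reads, 3 and 5.83 in A and 38.7 and 9.75 in C.

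The remaining 4 of the 10 also had few reads in A. These 4 and Bex2 averaged less than 5 FPKM in A and passed the filter only through their level in C. Gpha2, which encodes the alpha subunit of the glycoprotein hormone thyrostimulin, had 3 and 4 reads in A and 16 and 9 in C. Fam162a, a gene induced by hypoxia, had 1 and 3 reads in A and 15 and 11 in C, and in pair B it had 10 and 2. Gm12666 had 2 and 3 reads in A and 11 and 7 in C. Tm2d2 had 6 and 12 reads in A and 58 and 16 in C, its C1 value being far above C2. Their differences were 1.43 ± 0.33, 2.30 ± 0.64, 1.40 ± 0.38 and 1.48 ± 0.44 (SE).

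**Figure D2:**
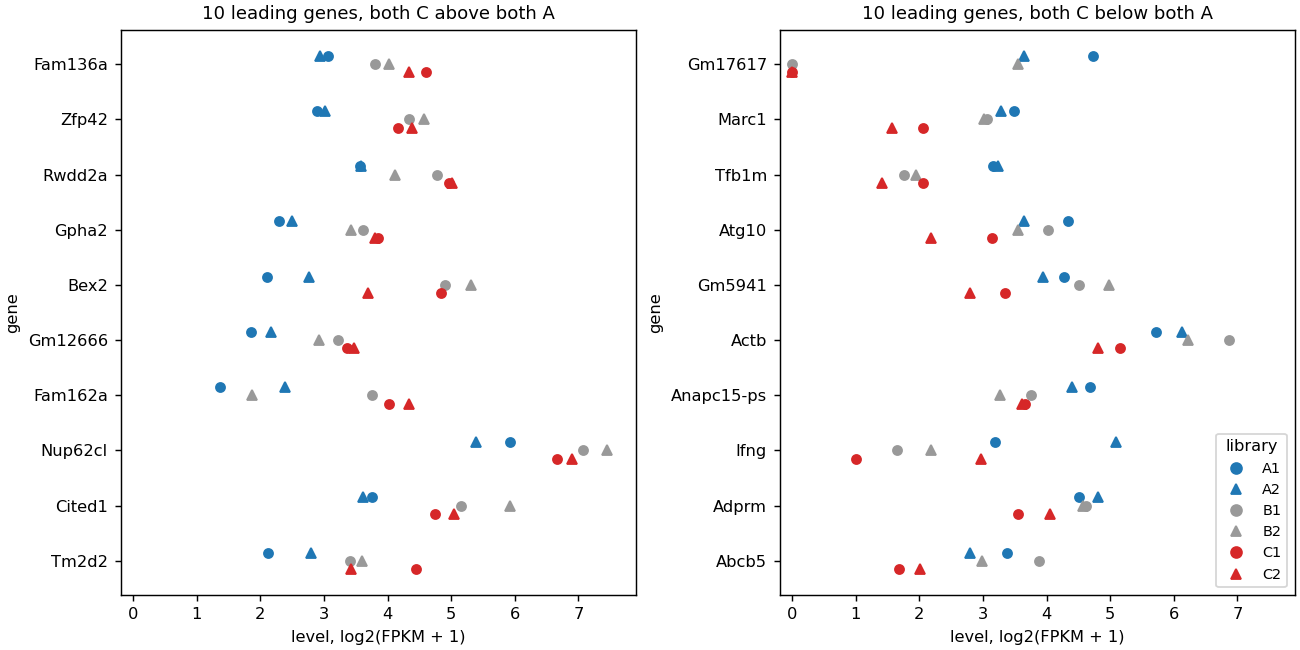
Level of each leading gene, log2(FPKM + 1), in the 6 libraries (blue pair A, grey pair B, red pair C; circles replicate 1, triangles replicate 2). The left panel holds the 10 genes with both C libraries above both A libraries and the right panel the 10 with both below; Gm17617 rests on at most 1 read in any library.

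Among the 10 leading genes with C below A, again 0 passed. Marc1, Tfb1m, Abcb5, Ifng and Gm17617 averaged less than 5 FPKM in C and were tested only through their level in A. Marc1, which encodes a molybdenum enzyme of the mitochondrial outer membrane (chromosome 1, 184786767 to 184811313), measured 10.2 and 8.76 FPKM in A and 3.15 and 1.96 FPKM in C, a difference of -1.58 ± 0.39 (SE). Its reads numbered 23 and 22 in A and 11 and 4 in C. Tfb1m, a methyltransferase of mitochondrial ribosomal RNA, measured 7.91 and 8.43 FPKM in A and 3.15 and 1.66 FPKM in C (-1.46 ± 0.47). Its level in pair B, 2.38 and 2.84 FPKM, lay with that in C. All these values rest on few reads, 10.5 and 12.5 in A, 6.5 and 2 in C and 4 and 4.5 in B.

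Atg10, an enzyme of autophagosome formation, measured 19.2 and 11.5 FPKM in A and 7.86 and 3.53 FPKM in C (-1.32 ± 0.44). Adprm, an ADP-ribose and CDP-alcohol diphosphatase, measured 21.7 and 27.1 FPKM in A and 10.7 and 15.6 FPKM in C (-0.86 ± 0.32), on 43 and 60 reads in A and 33 and 28 in C. The transporter gene Abcb5 measured 9.36 and 5.93 FPKM in A and 2.2 and 3.02 FPKM in C (-1.24 ± 0.46). Neither C pool reached the lower A pool in any of these 3, as the choice of non-overlapping genes requires.

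Ifng, the interferon gamma gene, is known as a cytokine of T and NK cells. It measured 8.11 and 33.2 FPKM in A and 0.993 and 6.81 FPKM in C, on 10.5 and 48 reads in A and 2 and 8 in C. One pool, A2, held most of the signal, and A1 and C2 lay close to each other. Whether the counting used strand is not given in the sources used here, so reads from an overlapping transcript cannot be told apart from Ifng itself. The marker list of blood cells is given at the end. Gm5941 and Anapc15-ps had at most 11.2 reads in a library of A or C, and Gm17617, a gene model of 39 bases, had 1 and 0.5 reads in A and 0 in C, so no fold is given.

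Among genes with more reads the differences were smaller. Of the 1908 genes with a mean of 100 reads or more, 10 were higher and 2 lower at an unadjusted p below 0.05. In the same read classes the median absolute difference between the pair means went from 0.42 under 20 reads to 0.15 at 300 reads or more, and the median absolute difference within a pair went from 0.64 to 0.31.

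**Figure D3:**
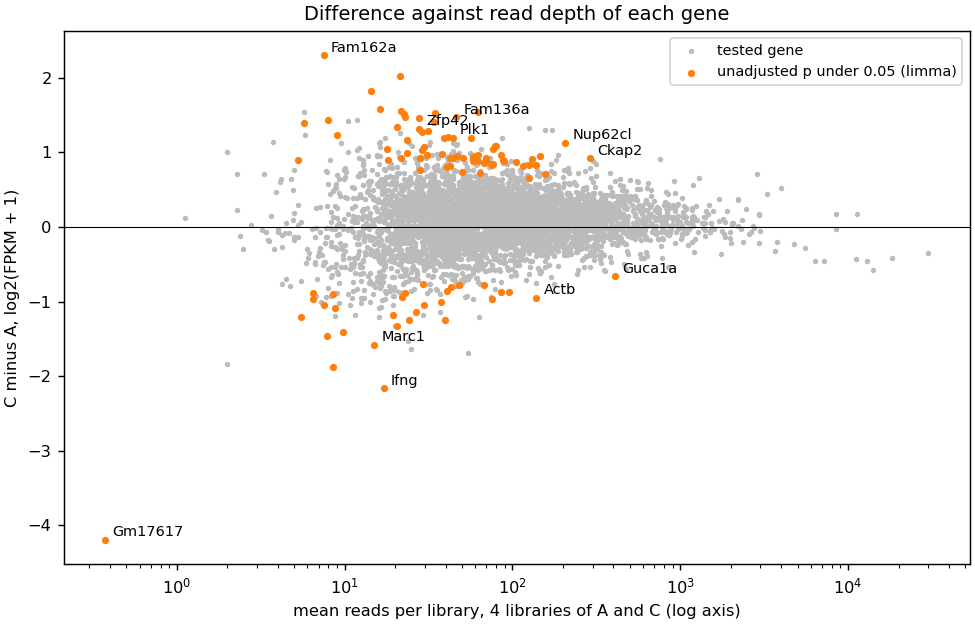
Difference between pairs, C minus A on log2(FPKM + 1), against the mean number of reads per library over A1, A2, C1 and C2 (log axis) for the 4769 tested genes, with the 102 genes at an unadjusted p below 0.05 in orange. The scatter narrows to the right, and Nup62cl, Ckap2, Actb and Guca1a are the labelled genes above 100 reads.

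The 8 genes per direction with the lowest unadjusted p were taken from the non-overlapping genes of this depth. Among the 8 above in C, Ckap2, a protein of the mitotic spindle (chromosome 8, 22168160 to 22185819), measured 42.6 and 60.9 FPKM in A and 112 and 85.4 FPKM in C, on 137 and 219 reads in A and 558 and 249 in C, a difference of 0.92 ± 0.31 (SE). Cdca3, which promotes entry into mitosis, measured 20.2 and 30.3 FPKM in A and 60.1 and 37.3 FPKM in C (0.91 ± 0.36). Of the A and C pools, C1 had the highest value of both genes. The difference for C1 against A1 was 1.37 in Ckap2 and 1.53 in Cdca3, and for C2 against A2 it was 0.48 and 0.29.

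Hspa9, the Hsp70 chaperone of mitochondria, measured 21.0 and 22.5 FPKM in A and 35.6 and 43.5 FPKM in C (0.83 ± 0.30). Ghitm, of the inner mitochondrial membrane, measured 21.8 and 12.6 FPKM in A and 29.8 and 32.9 FPKM in C (0.87 ± 0.34), and Mrps30, a mitochondrial ribosomal protein, 9.37 and 12.5 FPKM in A and 24.0 and 16.7 FPKM in C (0.83 ± 0.33). For Hspa9 the 2 pools of each pair were close to each other, while for Ghitm A1 and A2 differed by more than A1 and C1 did.

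Psmc6, an ATPase of the proteasome, measured 32.6 and 26.5 FPKM in A and 45.6 and 51.7 FPKM in C (0.71 ± 0.29). Atp6v1d, a subunit of the vacuolar proton pump, measured 11.7 and 19.6 FPKM in A and 25.7 and 29.7 FPKM in C (0.82 ± 0.34). With Nup62cl these were the 8 of lowest p. Non-overlapping genes above in C numbered 260 of the 1332 with 100 to 300 reads and 99 of the 576 with 300 or more. Over all tested genes the share was 18.0%.

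Among the 8 genes of lowest p below in C at this depth, Guca1a, which encodes an activator of guanylate cyclase (chromosome 17, 47394560 to 47400584), measured 467 and 533 FPKM in A and 361 and 277 FPKM in C, on 406 and 519 reads in A and 489 and 219 in C, a difference of -0.66 ± 0.28 (SE). A1 lay above C1 in FPKM although C1 had more reads, since C1 was the deeper library. Phlda2, an imprinted gene of placental growth, measured 111 and 166 FPKM in A and 76.3 and 84.6 FPKM in C (-0.75 ± 0.34). Phlda2 and the 5 genes that follow had an unadjusted p above 0.05. Zbtb10, a zinc finger gene, measured 33.9 and 21.4 FPKM in A and 12.9 and 18.7 FPKM in C (-0.76 ± 0.35). Rpl39l, a paralog of a ribosomal protein gene, measured 205 and 241 FPKM in A and 135 and 143 FPKM in C (-0.67 ± 0.34), and the spliceosome factor Usp39 49.9 and 42.4 FPKM in A and 25.2 and 35.6 FPKM in C (-0.60 ± 0.31). Lonp2, which encodes a peroxisomal protease, measured 72.4 and 65.3 FPKM in A and 53.3 and 39.5 FPKM in C (-0.57 ± 0.29), and Gm20594 272 and 327 FPKM in A and 189 and 223 FPKM in C (-0.53 ± 0.28). In all, 90 of the 1332 genes with 100 to 300 reads and 37 of the 576 with 300 or more had both C pools below both A pools. Over all tested genes the share was 8.28%.

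Gene lists were described by their counts and medians, with 0 members passing in any of them. Members listed only as non-overlapping were named after their values were seen. Of the members below, Bax, Psmc3 and Cct7 averaged less than 5 FPKM in A, and Kat7 and Arpc5 in C. These were tested only through the other pair. Against the background of 18.0% of tested genes with both C pools above both A pools and 8.28% with both below, and a median of 0.10, cell division genes stood as follows. Of 43 tested genes of the spindle, kinetochore and anaphase-promoting complex, 35 had a difference above 0 (as did 2957 of all 4769), 17 had both C pools above and 1 below, and the median was 0.28. After median scaling 10 lay above and 2 below, with a median of 0.18. On that scale all 4769 tested genes had 594 above and 559 below. The scaled counts of every list below are to be read against these, not against 18.0% and 8.28%. For C1 against A1 the median was 0.36 (35 of 43 above 0), and for C2 against A2 it was 0.11 (29 of 43). The 17 genes were Aurkb, Aurkc, Bub3, Mad2l1, Cdca8, Kif11, Kif20a, Kif23, Tpx2, Ndc80, Cenpe, Cenpf, Sgo1, Sgo2a, Espl1, Prc1 and Ect2, and the 1 below was Cenpk. They include kinases, motors, kinetochore proteins and cohesin protectors.

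Bub3, a spindle checkpoint protein, measured 21.7 and 30.1 FPKM in A and 44.6 and 45.2 FPKM in C (0.79 ± 0.37). The C pools lay closer together than the A pools. Cenpf, a large kinetochore protein, measured 5.22 and 5.91 FPKM in A and 9.44 and 11.0 FPKM in C (0.77 ± 0.37). Tpx2, the activator of Aurora A, was the most deeply read of the 3, with 64.1 and 72.5 FPKM in A, 100 and 99.9 FPKM in C and 300 and 379 reads in A and 731 and 424 in C (0.55 ± 0.27).

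Regulators of the cell cycle had 25 tested members, of which 21 had a difference above 0, 6 had both C pools above (4 after median scaling) and 0 below, with a median of 0.31 (0.37 for C1 against A1 and 0.18 for C2 against A2). The 6 were Ccne1, Ccno, Cdc25c, Plk1, Mki67 and Fbxo5. Plk1, the mitotic Polo kinase, measured 8.64 and 10.1 FPKM in A and 28.2 and 18.2 FPKM in C (1.20 ± 0.40). Fbxo5, also called Emi1, an inhibitor of the anaphase-promoting complex, measured 42.4 and 51.6 FPKM in A and 139 and 60.8 FPKM in C (0.96 ± 0.45). Its C1 value was more than that of C2 by a wide margin, and C2 against A2 gave 0.23 where C1 against A1 gave 1.69. Mki67, the proliferation antigen, measured 16.0 and 25.1 FPKM in A and 29.8 and 32.2 FPKM in C (0.60 ± 0.32).

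Genes of DNA replication and nucleotide supply had 38 tested members. Of these 25 had a difference above 0, 13 had both C pools above and 0 below, and the median was 0.21. After median scaling 8 lay above and 2 below. Among the 13 were the licensing and replisome genes Mcm2, Mcm6, Cdc6, Cdt1, Cdc45, Orc4, Pcna, Rfc1 and Prim2, the nucleotide enzymes Rrm2 and Tyms, and Slbp, which binds histone mRNA. Tyms, thymidylate synthase, measured 9.61 and 7.71 FPKM in A and 15.3 and 18.5 FPKM in C (0.89 ± 0.33). Prim2, the large primase subunit, measured 6.23 and 5.42 FPKM in A and 10.8 and 14.1 FPKM in C (0.97 ± 0.38), and Rrm2, of ribonucleotide reductase, 89.1 and 105 FPKM in A and 140 and 141 FPKM in C (0.54 ± 0.28). In this list C2 against A2 gave the larger median, 0.26, against 0.12 for C1 and A1, the reverse of the spindle list.

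On the deposited scale, DNA repair genes had non-overlapping shares close to those of all tested genes (18.0% above and 8.28% below). Of 21 tested, 12 had a difference above 0, 4 lay above and 2 below, and the median was 0.01. After median scaling 1 lay above and 3 below, with a median of -0.09. Ercc1, a nuclease subunit of excision repair, measured 25.1 and 23.9 FPKM in A and 17.8 and 14.7 FPKM in C (-0.57 ± 0.33). Xrcc5, the large Ku subunit, measured 9.39 and 4.9 FPKM in A and 5.28 and 3.02 FPKM in C, with overlapping pairs. The mismatch repair gene Pms2 measured 9.98 and 8.21 FPKM in A and 13.1 and 12.0 FPKM in C (0.43 ± 0.33).

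p53 and its targets had 13 tested members and a median of 0.33, with 9 above 0, 4 with both C pools above (2 after median scaling) and 0 below. C1 against A1 gave a median of 0.43 and C2 against A2 one of 0.12. The 4 were Mdm2, the ubiquitin ligase of p53, the pro-apoptotic gene Bax, the stress gene Gadd45a and Trp53inp1. Gadd45a measured 5.95 and 9.13 FPKM in A and 15.6 and 18.1 FPKM in C (1.09 ± 0.56). Bax measured 3.81 and 3.69 FPKM in A and 6.87 and 7.34 FPKM in C (0.77 ± 0.39), on 6 and 6.5 reads in A and 16.8 and 10.5 in C. Cdkn1a, which encodes the p21 inhibitor and is a classic p53 target, measured 20.7 and 8.45 FPKM in A and 4.92 and 9.92 FPKM in C, a difference of -0.83 ± 0.56 with overlapping pairs. Its sign was not shared by the libraries, at -1.87 for C1 against A1 and 0.21 for C2 against A2.

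**Figure D4:**
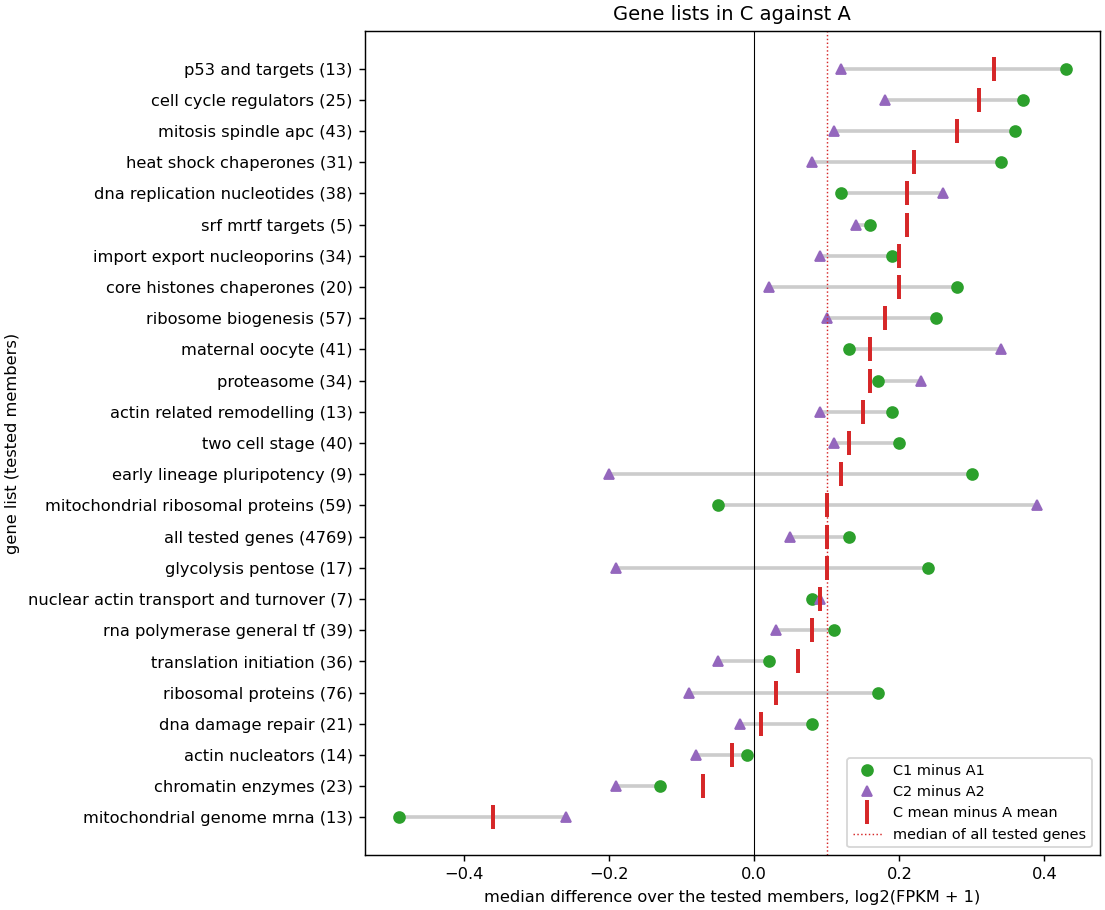
Median difference over the tested members of each gene list with 5 or more of them (number in brackets) on log2(FPKM + 1), for the pair means (red bars), C1 minus A1 (green circles) and C2 minus A2 (purple triangles); the dotted line is the median of all tested genes, 0.10. The mitochondrial mRNAs lie at -0.36 with both library differences below 0, as they also are for chromatin enzymes (-0.13 and -0.19) and actin nucleators (-0.01 and -0.08). The lists of early lineage, DNA repair, translation initiation, glycolysis, ribosomal proteins and mitochondrial ribosomal proteins have library differences on both sides of 0.

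Genes of the 2-cell stage, transcribed in a burst at this time, had 40 tested members, with 29 above 0, 8 non-overlapping above, 2 below and a median of 0.13, near the 0.10 of all genes. After median scaling 7 lay above and 3 below. Of the 49 genes listed for this stage, 40 reached the level for testing, so markers of the labelled stage were present. The list was chosen with earlier results of these data known, so this share does not test the stage. The 8 included 4 genes of the Zscan4 family (Zscan4b, Zscan4c, Zscan4e and Zscan4f), Tdpoz2, Pramel6, the homeobox gene Obox5 and B020004J07Rik, and the 2 below were Spz1 and AA792892. Family copies share reads, so the 4 Zscan4 genes are not separate observations. Zscan4e measured 15.8 and 9.22 FPKM in A and 39.7 and 18.8 FPKM in C (1.11 ± 0.57). In pairs A and C the second library had the lower value, and 1.27 and 0.95 separated C from A among the first and among the second libraries. Pramel6 measured 67.2 and 86.7 FPKM in A and 116 and 139 FPKM in C (0.73 ± 0.36), and Spz1, a helix-loop-helix gene, 56.6 and 53.5 FPKM in A and 34.3 and 32.3 FPKM in C (-0.71 ± 0.32).

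Maternal and oocyte genes had 41 tested members, 33 above 0, 2 non-overlapping above (Padi6 and Nlrp4e), 1 below (Zp3) and a median of 0.16 (2 above and 2 below after median scaling). Their spread within pairs was wide, since the median level of the list relative to the mean of all 6 libraries was 0.32 in A1 and 0.46 in C1 but -0.63 in A2 and -0.28 in C2. Nlrp4e measured 11.9 and 7.47 FPKM in A and 20.7 and 17.2 FPKM in C (0.93 ± 0.34). Padi6, of the subcortical maternal complex, measured 12.2 and 5.65 FPKM in A and 24.6 and 12.4 FPKM in C (0.98 ± 0.49). Zp3, a zona pellucida glycoprotein, went the other way, at 96.0 and 142 FPKM in A and 69.0 and 84.1 FPKM in C (-0.61 ± 0.33).

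Of 9 early lineage and pluripotency genes, Zfp42 alone had both C pools above, and Tfap2c had both below, at 9.92 and 11.5 FPKM in A and 7.43 and 9.89 FPKM in C (-0.29 ± 0.33). After median scaling 1 of them lay above and 0 below. Klf17 measured 32.1 and 16.2 FPKM in A and 47.4 and 20.7 FPKM in C, with overlapping pairs.

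All 13 mRNAs of the mitochondrial genome, which code for subunits of the respiratory chain and ATP synthase, had differences below 0, with a median of -0.36, and all 13 were lower in C1 than in A1 (median -0.49) and in C2 than in A2 (-0.26). These RNAs are made from shared precursors, so they are not 13 separate observations. Both C pools lay below both A pools for 6 of them, mt-Nd1, mt-Nd2, mt-Nd3, mt-Nd4l, mt-Atp6 and mt-Atp8. The count was 2 after median scaling, with a median of -0.46, and 1 after quantile normalization, with a median of -0.09. Quantile normalization gives equal ranks the same value in every library. By construction it therefore draws differences among the highest genes, such as mt-Atp6, towards 0, and cannot tell whether they differ. Mitochondrially encoded RNA took the larger share of assigned reads in A2 and the smaller in C1, as given above, and the part of that share in the other genes' values was not tested. mt-Nd1 measured 10514 and 13451 FPKM in A and 7617 and 10166 FPKM in C (-0.43 ± 0.29). mt-Co3 measured 15550 and 23125 FPKM in A and 9370 and 17370 FPKM in C (-0.57 ± 0.37), so that C2 lay between A1 and A2. mt-Co2 measured 9602 and 12243 FPKM in A and 6269 and 9921 FPKM in C (-0.46 ± 0.32) and mt-Cytb 24211 and 28509 FPKM in A and 17206 and 24864 FPKM in C (-0.35 ± 0.31). For mt-Atp6, the gene with the highest mean level of all, the values were 26943 and 28354 FPKM in A and 16453 and 25769 FPKM in C (-0.42 ± 0.31, and 0.00 after quantile normalization). mt-Atp8 was level in A1, A2 and C2 at 17850 and 17833 FPKM in A and 17710 FPKM in C2, and lower in C1 at 11604 FPKM, and after quantile normalization its difference was 0.09.

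**Figure D5:**
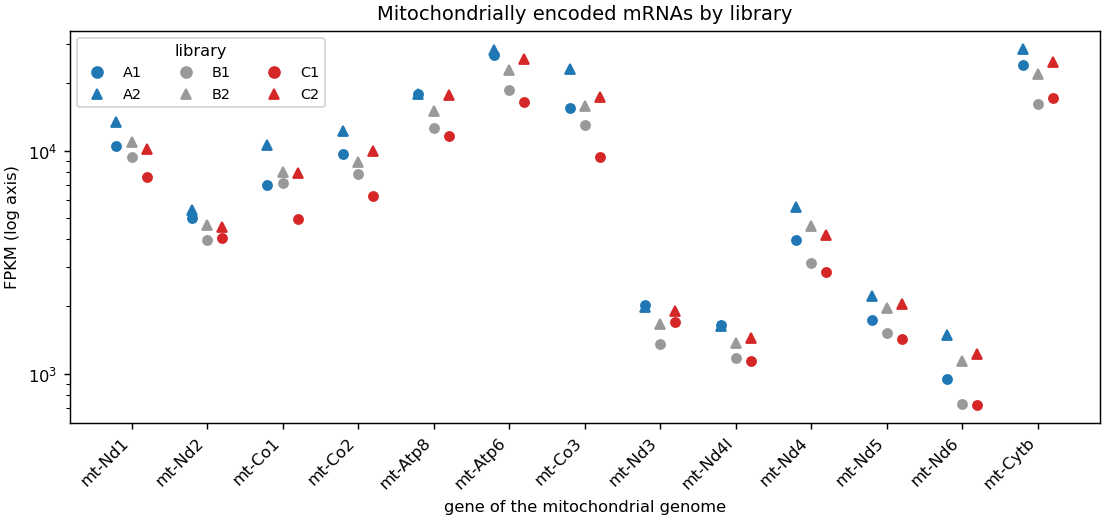
FPKM (log axis) of the 13 mRNAs of the mitochondrial genome in the 6 libraries (blue pair A, grey pair B, red pair C; circles replicate 1, triangles replicate 2). C1 is below A1 and C2 below A2 for all 13 genes, while C2 lies above A1 for 7 of them.

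Nuclear genes for mitochondrial ribosomal proteins, 59 tested, had 9 above, 4 below and a median of 0.10, the same as all genes (8 and 6 after median scaling). Their library differences disagreed in sign, -0.05 for C1 against A1 and 0.39 for C2 against A2. Mrpl18 measured 62.2 and 56.6 FPKM in A and 99.3 and 89.7 FPKM in C (0.66 ± 0.29), and Mrpl49 33.7 and 39.7 FPKM in A and 59.7 and 57.6 FPKM in C (0.67 ± 0.29). Of 17 genes of glycolysis and the pentose phosphate pathway, 2 lay above and 1 below, with a median of 0.10 (1 and 3 after median scaling). Rpe, ribulose phosphate epimerase, measured 9.15 and 4.96 FPKM in A and 11.5 and 12.9 FPKM in C (0.76 ± 0.41), and Tktl1, a transketolase-like gene, 36.8 and 27.9 FPKM in A and 22.6 and 21.8 FPKM in C (-0.51 ± 0.29). The level of Tktl1 in pair B was 74.8 and 81.2 FPKM, above all 4 libraries compared here. G6pdx measured 20.8 and 7.41 FPKM in A and 24.6 and 14.0 FPKM in C, with overlapping pairs.

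Ribosome biogenesis genes, 57 tested, had 43 above 0, 19 non-overlapping above, 1 below (Imp3) and a median of 0.18. After median scaling 10 lay above and 1 below. The median was 0.25 for C1 against A1 and 0.10 for C2 against A2. The 19 were Nop56, Nop2, Gar1, Nolc1, Utp4, Utp6, Rrp1, Rrp1b, Rrs1, Rcl1, Ddx10, Ddx21, Ddx52, Gnl2, Tsr1, Noc4l, Heatr1, Dimt1 and Rpf1. Rcl1, which acts in processing of the small subunit RNA, measured 21.6 and 27.4 FPKM in A and 53.5 and 36.1 FPKM in C (0.83 ± 0.36). Rpf1, of the large subunit pathway, measured 39.4 and 50.7 FPKM in A and 62.1 and 67.9 FPKM in C (0.53 ± 0.31), and Imp3 375 and 471 FPKM in A and 336 and 273 FPKM in C (-0.47 ± 0.29).

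The cytoplasmic ribosomal proteins themselves, 76 tested, had 7 above, 3 below and a median of 0.03, below that of all genes. After median scaling 2 lay above and 4 below, with a median of -0.07. C1 against A1 gave a median of 0.17 and C2 against A2 one of -0.09. Rps21 measured 75.3 and 120 FPKM in A and 132 and 146 FPKM in C (0.54 ± 0.36). Rpl8, with overlapping pairs, measured 34.8 and 61.2 FPKM in A and 57.4 and 81.8 FPKM in C. Translation initiation factors, 36 tested, had 3 above, 2 below and a median of 0.06, which median scaling turned to 1 above, 5 below and -0.05. Among them Eif2b3 measured 7.74 and 8.92 FPKM in A and 5.67 and 4.56 FPKM in C (-0.61 ± 0.36), Eif5 169 and 205 FPKM in A and 255 and 229 FPKM in C (0.38 ± 0.32), and Eif5a, whose C1 value stood apart, 111 and 106 FPKM in A and 216 and 105 FPKM in C.

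Proteasome subunits, 34 tested, had 25 above 0, 11 non-overlapping above, 2 below (Psma6 and Psmb4) and a median of 0.16. After median scaling 7 lay above and 1 below. The median was 0.17 for C1 against A1 and 0.23 for C2 against A2. The 11 were Psma7, Psmb6, Psmc1, Psmc3, Psmc5, Psmc6, Psmd4, Psmd7, Psmd11, Psmd12 and Psme3, of which 4 are ATPases of the regulatory base. Psma7, of the outer ring of the core, measured 11.4 and 16.0 FPKM in A and 30.3 and 29.4 FPKM in C (1.09 ± 0.35). Both C pools had about the same value and stood clear of A. Psmc3 measured 3.45 and 4.8 FPKM in A and 15.3 and 11.0 FPKM in C (1.46 ± 0.54) on 9 and 14 reads in A and 62 and 26 in C.

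Heat shock proteins and chaperones, 31 tested, had 8 above and 0 below (4 and 1 after median scaling). Their median was 0.22 (0.34 for C1 against A1 and 0.08 for C2 against A2). Besides Hspa9, Dnajb11, a co-chaperone of the endoplasmic reticulum, measured 9.89 and 9.12 FPKM in A and 18.1 and 18.1 FPKM in C (0.86 ± 0.39), and Cct7, of the cytosolic chaperonin, 4.5 and 3.96 FPKM in A and 10.8 and 5.53 FPKM in C (0.75 ± 0.50). Importins, exportins and nucleoporins, 34 tested, had 9 above (4 after median scaling), 1 below and a median of 0.20 (0.19 for C1 against A1 and 0.09 for C2 against A2). Ranbp1, which binds the transport GTPase Ran, measured 16.5 and 29.5 FPKM in A and 30.4 and 48.3 FPKM in C (0.77 ± 0.38), Nup93 5.87 and 11.3 FPKM in A and 14.0 and 13.5 FPKM in C (0.68 ± 0.38), and Ipo11 7.74 and 10.2 FPKM in A and 12.0 and 16.9 FPKM in C (0.63 ± 0.45).

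Regulators of the actin cytoskeleton were too few to set their counts apart from all tested genes (18.0% above and 8.28% below). The shares were 14.3% above and 14.3% below in the first list and 7.1% and 14.3% among the nucleators. Of 7 tested genes of nuclear actin transport and filament turnover, Capza2, a capping protein subunit, lay above at 26.1 and 29.5 FPKM in A and 35.4 and 36.7 FPKM in C (0.36 ± 0.28). Tmsb4x, thymosin beta 4, which sequesters actin monomers, lay below at 14.6 and 10.4 FPKM in A and 8.91 and 4.82 FPKM in C (-0.81 ± 0.38), and Pfn1, profilin, overlapped at 8.94 and 9.3 FPKM in A and 13.4 and 9.17 FPKM in C. Xpo6, the exporter of actin from the nucleus, was under the level for testing at 3.25 and 1.37 FPKM in A and 1.94 and 0.782 FPKM in C, with overlapping pairs. The 14 tested actin nucleators had 1 above (Actr2), 2 below (Actr3 and Arpc5) and a median of -0.03. Arpc5, of the Arp2/3 complex, measured 9.01 and 4.91 FPKM in A and 4.38 and 1.94 FPKM in C (-0.95 ± 0.50), Actr2 14.0 and 16.0 FPKM in A and 16.2 and 21.9 FPKM in C (0.31 ± 0.31), and the formin gene Fhod3 12.8 and 8.6 FPKM in A and 20.1 and 11.6 FPKM in C with overlapping pairs. After median scaling Actr2 and Capza2 no longer lay above, leaving 0 above and 1 below in the first list and 0 above and 3 below among the nucleators.

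Of 26 listed genes of the serum response factor, a transcription factor that responds to the pool of free actin, 5 were tested, and Tpm3, a tropomyosin, alone had both C pools above, at 14.0 and 13.4 FPKM in A and 18.4 and 14.9 FPKM in C (0.25 ± 0.30). Myl12a (27.6 and 15.1 FPKM in A and 19.9 and 28.2 FPKM in C) and Cnn3 (47.5 and 72.5 FPKM in A and 96.6 and 48.8 FPKM in C) had overlapping pairs.

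Chromatin remodellers that contain actin or actin-related proteins, 13 tested, had 2 above (Brd8 and Smarca4), 0 below and a median of 0.15 (3 above and 0 below after median scaling). Smarca4, the ATPase of the BAF complex, measured 5.4 and 4.7 FPKM in A and 6.16 and 7.15 FPKM in C (0.34 ± 0.38), and Brd8 5.88 and 6.27 FPKM in A and 8.86 and 7.46 FPKM in C (0.37 ± 0.35). Yeats4 measured 28.3 and 23.4 FPKM in A and 55.4 and 27.3 FPKM in C, with overlapping pairs. Chromatin-modifying enzymes, 23 tested, had 9 above 0, 2 non-overlapping above (Ezh2 and Kdm3a), 3 below (Kdm1a, Kat7 and Kat8) and a median of -0.07 (2 above and 4 below after median scaling). Kat7, a histone acetyltransferase also called Hbo1, measured 7.77 and 8.56 FPKM in A and 4.82 and 2.59 FPKM in C, Kat8, the H4K16 acetyltransferase Mof, 20.8 and 15.9 FPKM in A and 14.5 and 10.3 FPKM in C (-0.54 ± 0.36), and Suv39h2 16.2 and 6.79 FPKM in A and 8.67 and 4.75 FPKM in C with overlapping pairs.

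RNA polymerase subunits and general transcription factors, 39 tested, had 4 above, 3 below and a median of 0.08, which median scaling turned to 2 above, 4 below and -0.02. Ssrp1, of the histone chaperone FACT, measured 11.8 and 10.5 FPKM in A and 17.9 and 18.0 FPKM in C (0.64 ± 0.29), Gtf2a2 29.5 and 18.6 FPKM in A and 51.1 and 30.6 FPKM in C (0.73 ± 0.38), and the small polymerase subunit gene Polr2l 172 and 196 FPKM in A and 148 and 131 FPKM in C (-0.39 ± 0.31). Histones and their chaperones, 20 tested, had 3 above (2 after median scaling), 0 below and a median of 0.20. That median was 0.28 for C1 against A1 and 0.02 for C2 against A2. The leading members Asf1a (15.8 and 13.8 FPKM in A and 41.0 and 15.1 FPKM in C), Hist1h2bc (7.27 and 1.27 FPKM in A and 9.51 and 5.24 FPKM in C) and Npm2 (161 and 76.8 FPKM in A and 119 and 38.3 FPKM in C) had overlapping pairs.

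The sex of the embryos in a pool bears on X-linked genes. The 192 tested genes of the X chromosome had a median difference of -0.02, while the medians of the autosomes ran from 0.05 to 0.16. Of the 192, 95 lay above 0, 27 were non-overlapping above and 14 below (18.0% and 8.28% over all tested genes). The library differences had opposite signs, -0.20 for C1 against A1 and 0.24 for C2 against A2. The 9 Y-linked genes had 107 and 303 reads in A and 311 and 232 in C, so A1 had the fewest of these 4. Library B2, which enters the fit and its standard errors, had 0 reads on them. Eif2s3y measured 8.41 and 27.1 FPKM in A and 17.2 and 16.4 FPKM in C, Uty 4.90 and 7.31 FPKM in A and 6.70 and 9.01 FPKM in C, and Zfy1 1.74 and 6.24 FPKM in A and 5.60 and 7.69 FPKM in C. The part of embryo sex in the values of Nup62cl, Cited1 and Bex2 was not tested.

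RNA of other cell types was scarce. The 22 cumulus and granulosa markers had 12 and 13 reads in A and 34.5 and 9.5 in C, most of them on Amhr2, with 11 markers at 0 in all 4 libraries, among them Inha, Fshr and Foxl2. The 15 sperm and spermatid transcripts had 91.5 and 87.8 reads in A and 180 and 65 in C, and 7 were at 0 in all 4, among them Prm1, Tnp1 and Odf1. Most of their reads fell on Ldhc (39.9 and 34.0 FPKM in A and 35.6 and 32.1 FPKM in C) and Odf2. The 10 blood cell markers had 63.5 and 16 reads in A and 40.8 and 11.5 in C, mostly on the alpha-globin genes, and 5 were at 0. Hba-a1 measured 42.3 and 8.81 FPKM in A and 15.8 and 4.75 FPKM in C and Hba-a2 38.5 and 5.36 FPKM in A and 14.5 and 4.13 FPKM in C, with A1 highest and the pairs overlapping. The 24 genes of interferon response and RNA sensing had 67.6 and 57.5 reads in A and 115 and 45 in C, and the 1 tested member, Stat2, measured 5.91 and 5.28 FPKM in A and 5.1 and 5.58 FPKM in C. The part of these cell types in the differences above was not tested.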

How the data were processed

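RNA was measured in pools of 5 embryos with an added ERCC spike-in, as libraries made with 13 PCR cycles and read as 50 and 25 bases. The values are FPKM per gene, deposited by the authors. They hold 0 spike-in rows, so the spike-in was not used for scaling here. Trimmomatic, Trim Galore, cutadapt, STAR, featureCounts and mm10 are named per the submitters' processing notes. How strand was handled is not given in the sources used here, nor is the annotation, so overlapping and antisense genes are uncertain, as are near-identical copies, whose shared reads were split in fractions. Reads were recovered as FPKM times gene length and came out as multiples of 0.01 read for 100% of values (tolerance 0.0002), and 1 read in a 2 kb gene was worth 0.321 to 0.551 FPKM. Of 21963 protein-coding genes, the 4769 that averaged 5 FPKM or more across A1, A2, C1 and C2 were tested with limma 3.58.1 (R 4.3.3) on log2(FPKM + 1), with a variance trend, 1 mean per pair over 6 libraries (3 residual degrees of freedom) and Benjamini-Hochberg adjustment at 0.05. The script was tested on simulated data. These gave all genes the same extra spread and did not hold the likeness of A2 and C2. That test therefore does not bear on how many genes differ between these pairs. Genes described were the 10 per direction with the lowest p among genes whose pairs do not overlap, 8 per direction among genes with a mean of 100 reads or more, the 3 tested members of each list with the lowest p, Actb, Actg1, Acta1, Actc1 and Xpo6, and the 5 highest in FPKM. The members and lists were chosen with earlier results of these data known. Titles and annotation of the injected mRNA disagree for all 6 libraries. Some items are not reported here. The 9 other samples were not analysed here. Alternatives were other filters, pseudocounts, scalings, limma-voom, a replicate block and each library left out.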

Additional observations from a re-analysis of the deposited data

How the results depend on the processing

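Depth limits the genes under 20 reads, whose median difference within a pair was 0.64. The count of genes with an adjusted p below 0.05 (limma) was 0 in each direction in the fits reported and under every alternative but 2. The first, added after seeing the data, took the title number as a replicate block within the 4 libraries of A and C, which leaves few residual degrees of freedom. It called 12 genes higher (Rab29, Mmadhc, Cst9, Fam136a, Zscan4c, Zscan4f, Zscan4-ps2, Rwdd2a, Fam162a, Nit2, Gm773 and Bex2) and 3 lower (Ifng, Scd3 and Gm17617, the last on at most 1 read), with 223 and 112 at an unadjusted p below 0.05. The numbers are only shared numbers by the labels. Deviations of same-numbered libraries correlated across genes at 0.343 for A with C, 0.205 for A with B and -0.043 for B with C. The replicate block on all 6 libraries called 0 and 0, with 89 and 45 unadjusted. The second, C1 against A1, assumes that these single libraries vary like pair B. It called 2 genes higher (Rab29 and Id1) and 0 lower, with 110 and 64 unadjusted, and non-overlap could not be counted there.

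The unadjusted counts were 156 higher and 85 lower with a mean of 1 FPKM or more, 282 and 223 with no filter, 20 and 6 with 20 FPKM or more, 225 and 180 over all gene types, 46 and 50 after median scaling and 46 and 56 after quantile normalization. The non-overlapping counts were 1540 and 905, 2377 and 1545, 376 and 156, and 2216 and 1397 under the first 4 of these, which test other numbers of genes. Leaving out 1 library gave 37 to 157 higher and 21 to 83 lower unadjusted, and 1522 to 2170 and 1020 to 1294 non-overlapping, where fewer libraries have to be separated. Of 113 named genes, 14 changed sign somewhere over 17 alternatives, and for these the cause was not tested. Leaving out 1 library at a time moved the difference between -0.21 and 0.62 for Myl12a, -0.26 and 0.71 for Cnn3, -0.14 and 1.02 for Klf17, -0.05 and 0.99 for Eif5a, -0.15 and 1.22 for G6pdx, -0.03 and 1.84 for Hist1h2bc, -1.52 and 0.09 for Npm2, -2.14 and 0.00 for Hba-a1, -2.15 and 0.48 for Hba-a2, -0.12 and 0.01 for Stat2, and -0.66 and 0.92 for Eif2s3y. For C1 against A1 it was 0.17 for Actg1 and -0.45 for Myl12a. After quantile normalization, which draws the highest genes to equal values by construction, it was 0.00 for mt-Atp6 and 0.09 for mt-Atp8.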
